A study of Homo sapiens with 6 samples.

Results

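The collagen crosslinking and hydroxylating enzymes are represented here by 10 genes, taken by symbol from the RNA-seq table of H2087-LCC cells, and all 10 were found among its 21293 genes. They comprise 5 lysyl oxidases (LOX, LOXL1, LOXL2, LOXL3 and LOXL4), 2 lysyl hydroxylases (PLOD1 and PLOD2) and 3 alpha subunits of the collagen prolyl 4-hydroxylase (P4HA1, P4HA2 and P4HA3). H2087-LCC is a latency competent cancer cell population, selected in mice from a human lung adenocarcinoma line and labelled a dormant metastatic derivative. The same cells made up all 3 groups of 2 polyA RNA libraries. The SB group received SB505124, a kinase inhibitor aimed at the type I TGFβ receptor, during 3 days. The other groups received TGFβ for 3 days or for 7 days. No group was left untreated, so in a difference from SB the added TGFβ and the inhibitor cannot be told apart. SB was sampled at 3 days alone, so time in culture and TGFβ cannot be told apart in the comparison of 7 days with SB, nor, between the TGFβ groups, can exposure and time in culture. The study describes the 2 libraries of a group as technical replicates, so the SDs and p-values may cover technical spread only. In bulk libraries such as these, fewer cells of a type and less RNA per cell cannot be told apart.

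Fibrillar collagen is modified in the endoplasmic reticulum before it is secreted. Prolyl 4-hydroxylases hydroxylate proline residues, which keeps the triple helix stable at body temperature, and lysyl hydroxylases modify lysine residues that later take part in crosslinks. Outside the cell, the copper-dependent lysyl oxidases oxidize lysine and hydroxylysine, which starts the covalent crosslinking of collagen and elastin fibers. In carcinomas these enzymes are best known for stiffening the matrix around tumor cells, and TGFβ is a classical inducer of matrix genes.

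Normalized counts, meaning reads per gene scaled to library size and deposited as whole numbers, summed to between 34306283 and 36340734 per library. A single read was estimated at 0.896 to 1.098 normalized counts, which gives 32000000 to 40000000 assigned reads per library. Of 7 epithelial markers, 4 were called lower at 7 days against SB (EPCAM, CDH1, KRT18 and NKX2-1), KRT7 was called higher, and KRT8 and KRT19 were not called. KRT7 had 5860 and 6183 normalized counts in SB, 15440 and 18905 at 3 days and 13979 and 11230 at 7 days, and KRT8 lay between 33341 and 42692 in the 6 libraries. EPCAM fell from 10180 and 9106 in SB to 2988 and 3277 at 7 days, and E-cadherin (CDH1) fell from 371 and 635 in SB to 28 and 24 at 3 days and 10 and 9 at 7 days, so the TGFβ libraries were far below both SB libraries. KRT18 stayed abundant, at 31757 to 50793, KRT19 had 3785 to 6809, and the lung lineage factor NKX2-1 went from 2784 and 2908 in SB to between 712 and 857 in the TGFβ libraries. The summed level of 4 fibroblast markers lay between 9 and 20 in every library, with LUM at 0 throughout and DCN at 0 or 1. Endothelial CDH5 did not exceed 20 and VWF did not exceed 13, and PTPRC and CD3E did not exceed 4, whereas PECAM1 had 36 to 67 and CD68, which is not restricted to immune cells, 4368 to 5113. Neither the summed fibroblast nor the summed endothelial markers exceeded 78.

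The reference sequence before the transcription start is shown for 5 members with 3 kinds of time course. PLOD1 and P4HA2 were higher at 3 and 7 days, PLOD2 and P4HA1 were called higher against SB at 7 days alone, and LOX was lower at 7 days. They do not stand for all 10. LOXL2 was called lower at 3 days and higher at 7 days against SB, and LOXL3 lower at both times. LOX, PLOD2, P4HA1 and P4HA2 are known targets of hypoxia-inducible factors, a list that may not be complete. TGFβ signals through SMAD proteins. The 250 bases before the start were taken from RefSeq on GRCh38.p14, where windows of 8 of the 10 members were searched. Capitals mark 2 short motifs searched on both strands, the hypoxia core ACGTG and the SMAD core CAGAC. For LOX, the window of the farthest upstream start was used, chr5:122078260-122078509 on the minus strand. The other windows were chr3:146161185-146161434 (minus) for PLOD2, chr10:73096867-73097116 (minus) for P4HA1, chr5:132227092-132227341 (minus) for P4HA2 and chr1:11934467-11934716 (plus) for PLOD1.
LOX: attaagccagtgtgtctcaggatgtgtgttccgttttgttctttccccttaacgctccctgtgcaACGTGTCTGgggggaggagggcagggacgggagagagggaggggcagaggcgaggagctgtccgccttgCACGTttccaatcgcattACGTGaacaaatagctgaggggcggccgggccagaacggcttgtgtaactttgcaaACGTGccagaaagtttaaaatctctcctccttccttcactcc
PLOD2: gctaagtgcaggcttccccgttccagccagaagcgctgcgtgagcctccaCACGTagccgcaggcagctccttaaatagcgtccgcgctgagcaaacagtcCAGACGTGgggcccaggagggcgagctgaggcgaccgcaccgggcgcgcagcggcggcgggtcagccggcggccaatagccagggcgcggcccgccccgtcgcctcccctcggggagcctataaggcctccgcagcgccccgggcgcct
P4HA1: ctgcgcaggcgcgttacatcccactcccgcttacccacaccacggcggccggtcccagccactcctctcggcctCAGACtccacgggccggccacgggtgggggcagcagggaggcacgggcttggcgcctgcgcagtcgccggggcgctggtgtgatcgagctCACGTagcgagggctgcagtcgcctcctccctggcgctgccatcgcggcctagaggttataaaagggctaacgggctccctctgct
P4HA2: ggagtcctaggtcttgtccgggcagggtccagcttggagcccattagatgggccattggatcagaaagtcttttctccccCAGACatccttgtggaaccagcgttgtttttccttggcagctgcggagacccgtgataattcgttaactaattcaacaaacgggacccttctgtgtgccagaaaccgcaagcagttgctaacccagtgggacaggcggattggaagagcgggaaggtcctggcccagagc
PLOD1: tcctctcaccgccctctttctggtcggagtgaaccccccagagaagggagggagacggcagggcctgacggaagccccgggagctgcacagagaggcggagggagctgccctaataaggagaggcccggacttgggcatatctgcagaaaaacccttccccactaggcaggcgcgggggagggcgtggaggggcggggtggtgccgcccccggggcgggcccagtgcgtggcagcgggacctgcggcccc
The hypoxia core occurred 4 times in the LOX window shown, 2 times for PLOD2 and 1 time for P4HA1. It was found neither in the 1 window searched for P4HA2 nor in that for PLOD1, and other starts of these genes were not searched. The SMAD core occurred 1 time in each window shown except that of PLOD1, which held none. Of the searched members not shown, LOXL1 held no hypoxia core and 1 SMAD core. LOXL3 and LOXL4, the latter also called higher against SB at 7 days alone, held neither core. Each LOX window not shown held 1 hypoxia core. In LOX and in PLOD2 a hypoxia core and a SMAD core overlapped, as in ACGTGTCTG of LOX and CAGACGTG of PLOD2. Among 34788 windows of the same length in the table, 18.5% held the hypoxia core and 38.0% the SMAD core, so a match is a description of these letters and not a binding site.

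At 3 days of TGFβ, 4 of the 10 enzymes were higher than with SB and 2 lower. At 7 days all 10 differed from SB, with 8 higher and 2 lower. Between 3 and 7 days of TGFβ, 7 were higher at 7 days and 1 was lower. The split at 3 days depended on the scaling: with equal library totals 3 were higher and 4 lower, as LOX and P4HA1 became called and LOXL1 did not pass, and over all genes 1819 were then higher and 2550 lower. Genes were called with limma on log2(normalized count + 1) at a Benjamini-Hochberg adjusted p under 0.05 over 14395 genes, and all 10 members passed its filter, an average of 10 or more. Over all those genes, 14.9% were called higher and 14.0% lower at 3 days against SB, 27.7% and 26.9% at 7 days against SB, and 17.0% and 16.2% at 7 days against 3 days. The median log2 fold change of the members was -0.08, 0.68 and 0.53 in the same order, against -0.02, -0.00081 and 0.02 over all genes tested. The comparisons of 3 days and of 7 days with SB share the SB libraries, and those with 3 days share the 3-day libraries.

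**Figure D1:**
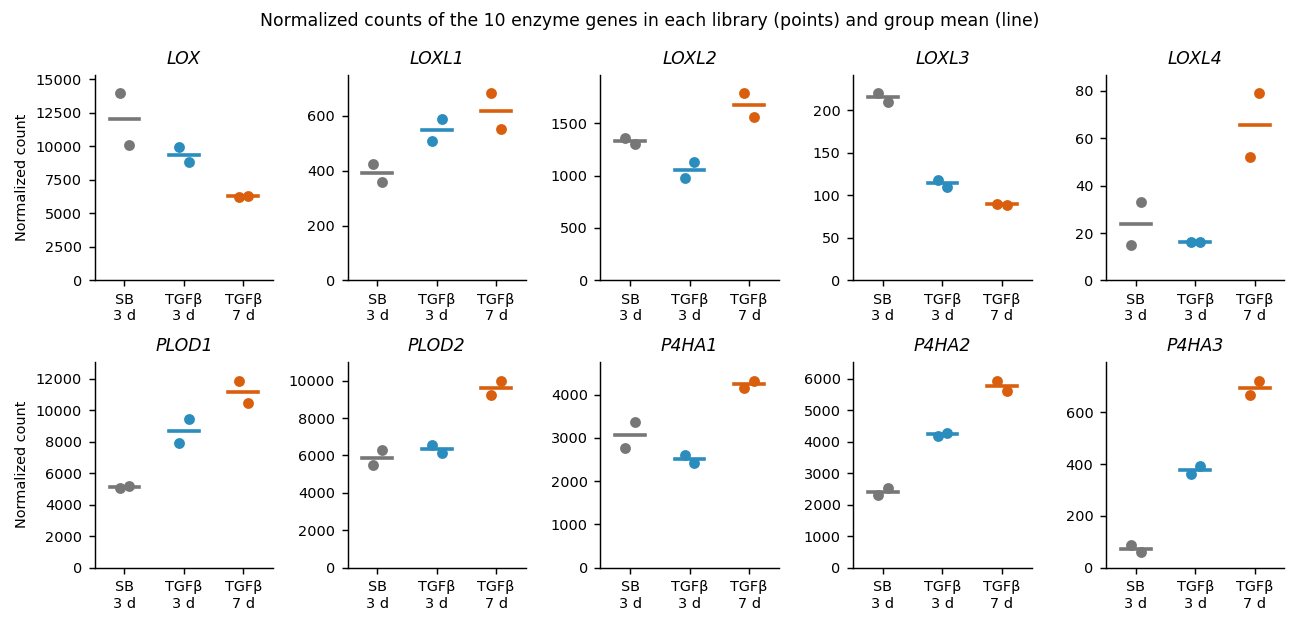
Normalized counts (y axis, linear, from 0, with its own scale in each panel) of the 10 enzymes in the 2 libraries (points) of each group (x axis: SB 3 days, TGFβ 3 days, TGFβ 7 days), with the group mean as a line. LOX and LOXL3 step down from SB to 7 days, PLOD1, P4HA2 and P4HA3 step up, and PLOD2, P4HA1, LOXL2 and LOXL4 stand highest at 7 days.

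Among the lysyl oxidases, LOX and LOXL3 were lower at 7 days of TGFβ than with SB and LOXL1 was higher. LOXL2 and LOXL4 were highest at 7 days. LOX (GRCh37 chromosome 5, 121398890 to 121414108), the founding member of the family and the most abundant one here, had 13939 and 10091 normalized counts in SB, 9967 and 8782 at 3 days and 6206 and 6298 at 7 days. Its libraries did not overlap between any 2 groups, but the lower SB library lay just above the 3-day libraries. The log2 fold change of LOX was -0.92 ± 0.13 (SE) between 7 days and SB (limma adjusted p = 8.94e-05) and -0.58 between 7 and 3 days (adjusted p = 0.00541). At 3 days the difference from SB was -0.34 (95% interval -0.62 to -0.06, adjusted p = 0.0658), and it was called under the replicate block (adjusted p = 0.0220) and with equal library totals (adjusted p = 0.0364). It rested on single libraries: it was -0.58 without the second SB library (adjusted p = 0.00243), -0.11 without the first (adjusted p = 0.439) and -0.25 without the second 3-day library (adjusted p = 0.260). With no filter on low values or no trend, the call at 7 days against 3 days was lost (adjusted p = 0.0690 and 0.0644).

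LOXL1, which acts on elastin (GRCh37 chromosome 15, 74218330 to 74244478), had 424 and 357 normalized counts in SB, 507 and 589 at 3 days and 682 and 551 at 7 days. Every TGFβ library exceeded both SB libraries, while the 3-day and 7-day libraries overlapped. The log2 fold change was 0.49 ± 0.15 (SE) at 3 days against SB (adjusted p = 0.0285), and 0.65 for the 7-day libraries (adjusted p = 0.00287). Between 7 and 3 days it was 0.17 (95% interval -0.16 to 0.49, adjusted p = 0.421). The 3-day call was lost under 5 of 16 alternatives, among them leaving out the second SB library (0.37, adjusted p = 0.141) or the second 3-day library (0.38, adjusted p = 0.166). Antisense LOXL1-AS1 overlaps 9.21% of the LOXL1 exon bases and had 335 to 420 normalized counts, and the kit keeps no strand, so their reads cannot be told apart there.

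LOXL2 (GRCh37 chromosome 8, 23154410 to 23282841), which with LOXL3 and LOXL4 carries scavenger receptor domains, had 1357 and 1300 in SB, 981 and 1130 at 3 days and 1785 and 1560 at 7 days. Its lowest libraries were those of 3 days and its highest those of 7 days, with no overlap between groups. ENTPD4, on the same strand, shares 2.0% of the LOXL2 exon bases and had 980 to 1887 normalized counts. LOXL2 was -0.33 ± 0.11 (SE) at 3 days against SB (adjusted p = 0.0410), 0.33 at 7 days (adjusted p = 0.0253) and 0.66 at 7 days against 3 days (adjusted p = 0.00121), all as log2 fold changes. The last call held under all 16 alternatives, whereas that at 3 days was lost under 9, including the replicate block (adjusted p = 0.0554) and the removal of any library but the second of 3 days (adjusted p = 0.0598 to 0.296). That at 7 days against SB was lost under 5, among them the removal of the second SB library (0.30, adjusted p = 0.0836) or the first 7-day library (0.23, adjusted p = 0.221).

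LOXL3 (GRCh37 chromosome 2, 74759385 to 74782817) had 220 and 210 normalized counts in SB, 118 and 110 at 3 days and 90 and 89 at 7 days. The 3 groups did not overlap, and the libraries of each group lay close together. Its log2 fold change was -0.91 ± 0.17 (SE) at 3 days against SB (adjusted p = 0.00200), and -1.25 for the 7-day libraries (adjusted p = 8.42e-05). From 3 to 7 days it was -0.34 (95% interval -0.72 to 0.03, adjusted p = 0.147). HTRA2, on the opposite strand, overlaps 20.7% of the LOXL3 exon bases and had 568 to 761 normalized counts, so LOXL3 reads there cannot be told apart from it.

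LOXL4 (GRCh37 chromosome 10, 100007447 to 100027951) was the scarcest member, with 15 and 33 normalized counts in SB, 16 and 16 at 3 days and 52 and 79 at 7 days. Both 7-day libraries stood above all the others, while the SB libraries spread around those of 3 days. The log2 fold change was 1.48 ± 0.38 (SE) at 7 days against SB (adjusted p = 0.00601) and 1.94 at 7 days against 3 days (adjusted p = 0.00291). Without the second 7-day library the first of these was 1.18 (adjusted p = 0.0716), and it was 0.94 without the first SB library (adjusted p = 0.0464) and 2.02 without the second (adjusted p = 0.00123). At 3 days against SB it was -0.46 (95% interval -1.29 to 0.38, adjusted p = 0.405), and its sign turned without the second SB library, to 0.09.

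The 5 hydroxylases moved in 1 direction where they passed the test in the main fit. At 3 days against SB, 3 were higher and none lower, and at 7 days all 5 were higher. Between 3 and 7 days all 5 were again higher, by log2 fold changes of 0.37 to 0.88. Over all genes tested, 14.9%, 27.7% and 17.0% were called higher in the same order. P4HA1, not called at 3 days against SB (-0.28), was called lower there with equal library totals. PLOD1 encodes the hydroxylase of lysines in the collagen triple helix (GRCh37 chromosome 1, 11994262 to 12035595). It had 5045 and 5206 normalized counts in SB, 7896 and 9458 at 3 days and 11890 and 10458 at 7 days, with no overlap between groups. PLOD1 rose by 0.75 ± 0.10 (SE) at 3 days against SB on the log2 scale (adjusted p = 0.000155), and by 1.12 in the 7-day libraries (adjusted p = 2.86e-06). From 3 to 7 days it was 0.37 higher (adjusted p = 0.0163), and that call was lost under 4 of 16 alternatives, among them the removal of the first 3-day library (0.24, adjusted p = 0.171) or the first 7-day library (0.28, adjusted p = 0.165).

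PLOD2 encodes the enzyme for lysines in the telopeptides, whose hydroxylation favors stable pyridinoline crosslinks (GRCh37 chromosome 3, 145752926 to 145881512). It had 5470 and 6308 normalized counts in SB, 6566 and 6119 at 3 days and 9245 and 10008 at 7 days. The SB and 3-day libraries overlapped, and both 7-day libraries were above all others. At 3 days the log2 fold change against SB was 0.11 ± 0.09 (SE), with a 95% interval of -0.09 to 0.31 (adjusted p = 0.412). It was 0.71 at 7 days against SB (adjusted p = 5.54e-05) and 0.60 at 7 days against 3 days (adjusted p = 0.000734). All 3 calls of PLOD2 kept their side of the threshold under the 16 alternatives.

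The alpha subunits of prolyl 4-hydroxylase carry the catalytic site and pair with the beta subunit P4HB. P4HA1, the main subunit in most cells (GRCh37 chromosome 10, 74766975 to 74856732), had 2760 and 3376 normalized counts in SB, 2608 and 2425 at 3 days and 4151 and 4326 at 7 days. The 3-day libraries were lowest and the 7-day libraries highest, without overlap. The log2 fold change was -0.28 ± 0.10 (SE) at 3 days against SB (95% interval -0.51 to -0.05, adjusted p = 0.0657), 0.47 at 7 days against SB (adjusted p = 0.00240) and 0.75 at 7 days against 3 days (adjusted p = 0.000385). The first of these passed the test with equal library totals (adjusted p = 0.0400) and without the first SB library (-0.42, adjusted p = 0.0100), and was -0.13 without the second SB library (adjusted p = 0.337).

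P4HA2 (GRCh37 chromosome 5, 131525840 to 131631008) had 2301 and 2523 normalized counts in SB, 4184 and 4276 at 3 days and 5940 and 5623 at 7 days. The groups did not overlap and the values stepped up from SB to 3 days to 7 days. P4HA2 rose by 0.81 ± 0.09 (SE) at 3 days (adjusted p = 2.54e-05), by 1.26 at 7 days (adjusted p = 2.69e-07) and by 0.45 from 3 to 7 days (adjusted p = 0.00257) on the log2 scale. Antisense P4HA2-AS1 overlaps 5.41% of its exon bases and had 68 to 213 normalized counts.

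P4HA3 (GRCh37 chromosome 11, 73946846 to 74022685) changed most among the 10 members against SB, from 88 and 60 normalized counts in SB to 360 and 392 at 3 days and 667 and 722 at 7 days. The libraries of the 3 groups did not overlap. The log2 fold change was 2.35 ± 0.18 (SE) at 3 days (adjusted p = 1.75e-06), 3.24 at 7 days (adjusted p = 5.07e-08), both against SB, and 0.88 at 7 days against 3 days (adjusted p = 0.00367). All 3 calls of P4HA2 and of P4HA3 held under the 16 alternatives. PPME1, on the opposite strand, overlaps 4.16% of the P4HA3 exon bases and had 1954 to 2500 normalized counts. P4HA3 reads there cannot be told apart from it.

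**Figure D2:**
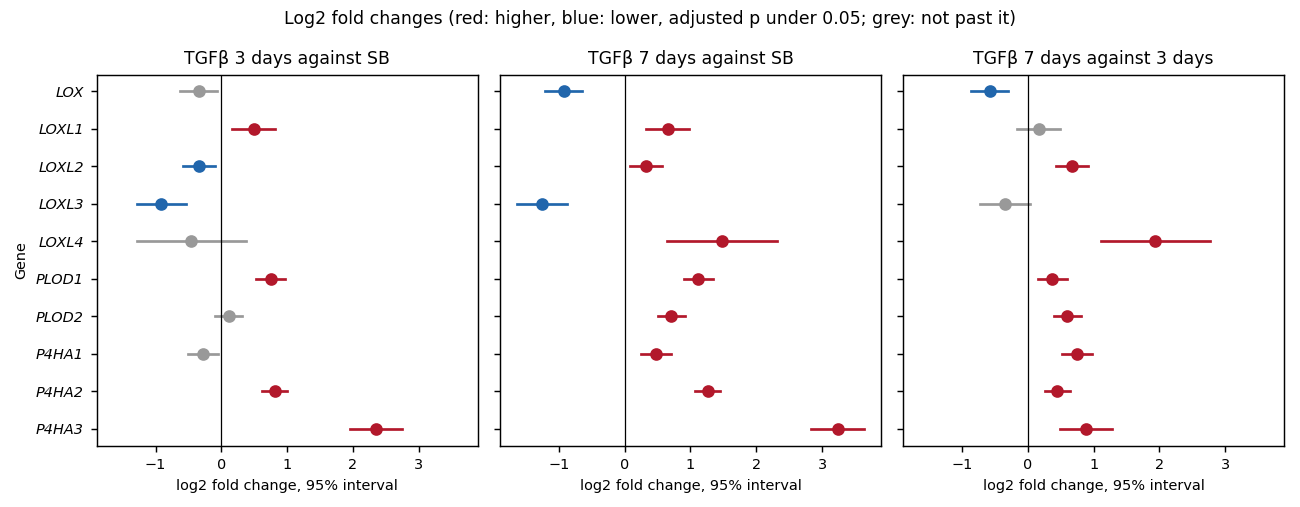
Log2 fold changes (x axis) of the 10 enzymes (y axis), 1 panel per comparison, as limma estimates (points) with 95% intervals (lines), in red where called higher, blue where called lower and grey where not called at an adjusted p under 0.05. The 5 hydroxylases lie above 0 at 7 days against SB, from 0.47 to 3.24, while LOX and LOXL3 lie below it at -0.92 and -1.25.

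Levels were compared between genes only after division by transcript length, as normalized counts per kilobase of the canonical transcript. LOX held most of the lysyl oxidase transcripts in every group, with a share of 79.8% ± 2.87 (SD, n = 2) with SB, and shares of 76.9% ± 3.24 and 62.1% ± 2.65 at 3 and 7 days of TGFβ. The share of LOXL2 was 12.3% ± 1.98 in SB and 22.6% ± 1.42 at 7 days, and that of LOXL1 5.67% ± 0.40 and 13.2% ± 1.56. The summed level of the 5 lysyl oxidases was 2955.5 ± 565 normalized counts per kilobase with SB, against 2399 ± 114 and 1986 ± 64 at 3 and 7 days of TGFβ. These are levels, and the exact values depend on which transcript length is used: with all exons merged, LOX held 84.6%, 82.4% and 69.7%.

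Among the prolyl 4-hydroxylase alpha subunits P4HA1 had a smaller share, and P4HA2 and P4HA3 larger ones, in the TGFβ groups. The shares were not tested. The share of P4HA1 was 66.4% ± 2.16 with SB, against 45.5% ± 1.83 and 49.5% ± 1.24 at 3 and 7 days of TGFβ, while P4HA2 had 31.6%, 46.2% and 40.7%. P4HA3 went from 1.99% ± 0.74 of the 3 subunits in SB to 8.28% ± 0.59 and 9.86% ± 0.51, and stayed the least abundant at every time. In the lysyl hydroxylase family, counted with PLOD3, PLOD1 had 40.5%, 53.1% and 51.4% and PLOD2 36.9%, 31.0% and 35.3%. The summed prolyl subunits went from 1682 to 2015 to 3125 normalized counts per kilobase, and the summed lysyl hydroxylases from 4257 to 5486 to 7299. With all exons merged, P4HA1 held 79.3%, 61.4% and 64.8% and P4HA2 19.1%, 31.5% and 27.0%, so their near equality at 3 days holds for the canonical length alone. PLOD2 then held 21.9%, 17.6% and 20.5%, below the 26.0% of PLOD3 in SB, so the order of these genes is not settled by the counts.

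**Figure D3:**
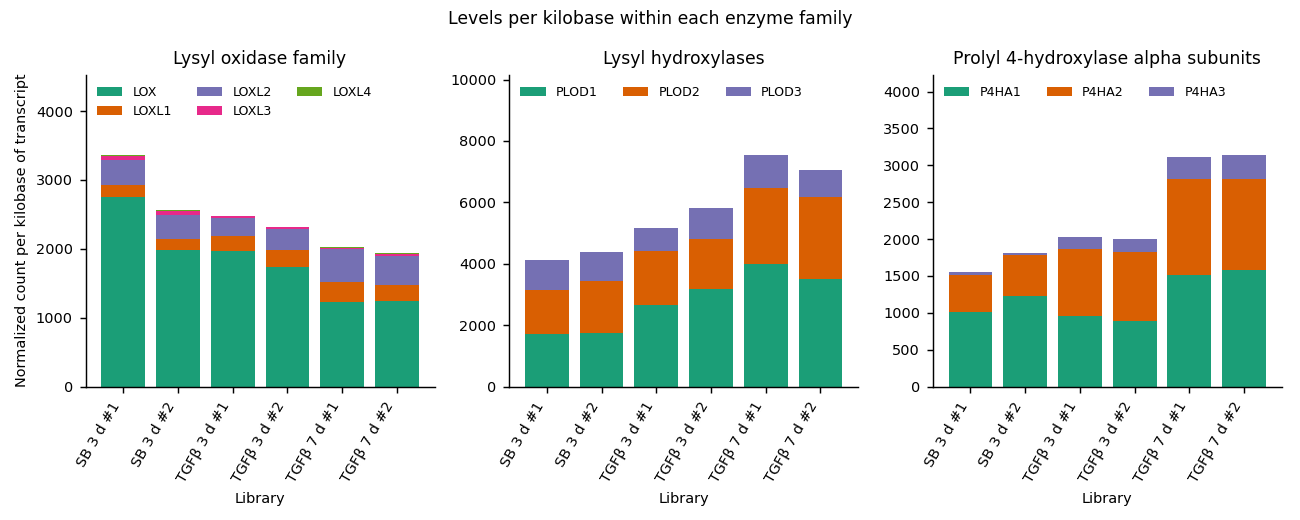
Stacked levels (y axis, normalized counts per kilobase of the canonical transcript, linear, from 0, with its own scale in each panel) of the genes of each family in each of the 6 libraries (x axis). The LOX bar segment is the largest of its family in every library and shrinks to 7 days, while the P4HA2 and P4HA3 segments are larger in the TGFβ libraries than in SB.

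The pattern most like that of LOX was found by distance between centered log2 values over the 6 libraries, restricted to genes averaging 100 or more. The closest genes were POLE2 (distance 0.13), LOC728730 (0.16), FARSB (0.16), RCHY1 (0.17) and SNHG1 (0.17), and POLE2 had 786 and 637 normalized counts in SB, 604 and 518 at 3 days and 385 and 370 at 7 days. For PLOD1 they were LIMK1 (0.13), OSBPL7 (0.13), MYADM (0.14), TEP1 (0.17) and SMG6 (0.17). Among the 10 members themselves, PLOD1 and P4HA2 were closest (0.24) and LOXL3 and P4HA3 farthest apart (4.66).

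The remaining collagen processing machinery rose more often than it fell. Of 24 partners (hydroxylases outside the 10, chaperones, procollagen proteinases and secretion factors), 23 were tested, of which 9 were called higher and 1 lower at 3 days against SB, 14 and 1 at 7 days against SB, and 11 and 1 at 7 days against 3 days. Their median log2 fold changes were 0.19, 0.58 and 0.38. Over all genes tested, 14.9%, 27.7% and 17.0% were called higher and 14.0%, 26.9% and 16.2% lower, in the same order. The gene lists were chosen with earlier results of these data known. TLL1, ADAMTS3 and P3H3 passed the filter with an SB mean under 10, so the filter admitted them through their TGFβ libraries. With a mean of at least 50 required, which drops them, 7, 11 and 9 partners were called higher and 1 lower in each comparison. BMP1, the procollagen C-proteinase, which also cleaves the LOX proenzyme, had 369 and 432 normalized counts in SB, 1153 and 1388 at 3 days and 3106 and 2860 at 7 days. Its log2 fold changes were 1.66, 2.90 and 1.24 in the 3 comparisons (adjusted p = 1.28e-06, 5.38e-09 and 4.44e-05).

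The related proteinase TLL1 had 0 and 2 in SB, 6 and 19 at 3 days and 31 and 25 at 7 days. Its log2 fold changes against SB were 2.77 at 3 days and 4.06 at 7 days. Without the second 3-day library the 3-day difference was 2.01 and no longer called. Among the N-proteinases, ADAMTS3 had 14 and 5 in SB, 25 and 19 at 3 days and 52 and 51 at 7 days. It differed by 1.27, 2.47 and 1.20 on the log2 scale in the 3 comparisons. The filter admitted TLL1 and ADAMTS3 through their TGFβ libraries, so calls of either against SB are no support for a rise. Leaving out a library could end the call of ADAMTS3 at 3 days against SB (0.60 to 1.93) and at 7 days against 3 days (1.01 to 1.39). ADAMTS14 instead had 104 and 297 in SB, 24 and 24 at 3 days and 74 and 75 at 7 days, so that both TGFβ groups were below SB and the SB libraries differed widely. Without the second SB library its 7-day difference from SB was -0.48 (adjusted p = 0.138). The third lysyl hydroxylase PLOD3 had 2146 to 3015 normalized counts in the 6 libraries and was called in no comparison, with log2 fold changes of -0.15, 0.01 and 0.16. P4HB had 17970 to 23424 and was called at 7 days against SB alone (0.27, adjusted p = 0.0186), a call lost without the first 7-day library (0.18, adjusted p = 0.223). P3H2, chosen after its values were seen, was the 1 partner lower at 7 days than at 3 days (-1.03, adjusted p = 0.00138).

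The fibrillar substrates of these enzymes were expressed unevenly. Of 12 genes for fibrillar collagens and elastin, 6 passed the filter on low values. Of these, 3 were called higher at 3 days against SB, 5 at 7 days against SB and 2 at 7 days against 3 days, with none lower. Over all genes tested, 14.9%, 27.7% and 17.0% were called higher in the same order. COL5A1 had 30 and 50 normalized counts in SB, 508 and 605 at 3 days and 2770 and 2465 at 7 days, log2 fold changes of 3.80, 6.04 and 2.23 (adjusted p = 8.30e-08, 7.91e-10 and 2.67e-05). COL27A1 had 717 and 967, 2150 and 2904, and 3152 and 2583, and COL24A1 had 15 and 15, 43 and 38, and 41 and 48. Both rose against SB at each time, by 1.58 and 1.78 for COL27A1 on the log2 scale. COL1A1 had 196 and 250, 267 and 337, and 581 and 457, and was called higher at 7 days against SB (1.22, adjusted p = 0.000144) and against 3 days (0.78, adjusted p = 0.00691). The latter call was lost without the first 3-day library (adjusted p = 0.0581) or the first 7-day library (adjusted p = 0.0834), which left 1 substrate called at 7 days against 3 days. Its chain partner COL1A2 did not exceed 5 in any library, and COL3A1 did not exceed 1.

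Copper delivery and ascorbate uptake supply the cofactors of the lysyl oxidases and hydroxylases. Of 6 such genes, 2 were called higher at 3 days against SB, 4 at 7 days against SB and 3 at 7 days against 3 days. None was called lower, and the medians were 0.17, 0.62 and 0.32. Over all genes tested, 14.9%, 27.7% and 17.0% were called higher in the same order. ATP7A, the pump that loads copper onto secreted enzymes, had 659 and 673 normalized counts in SB, 1077 and 978 at 3 days and 1520 and 1651 at 7 days. It rose by 0.62, 1.25 and 0.63 on the log2 scale (adjusted p = 0.000919, 1.67e-06 and 0.00129). ATOX1, the copper chaperone that serves it, rose by 0.46, 0.90 and 0.44. ATP7B had 22 and 28, 22 and 26, and 60 and 55, and was higher at 7 days against both SB and 3 days. The ascorbate transporter SLC23A2 had 1945 to 2736 normalized counts and was called at 7 days against SB (0.33, adjusted p = 0.0200), but not without the first SB library (0.18, adjusted p = 0.145) or either 7-day library. Without the first 3-day or the first 7-day library, 1 cofactor gene in place of 3 was called at 7 days against 3 days, with ATOX1 and ATP7B losing their calls (adjusted p = 0.0504 to 0.0727).

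Of 15 hypoxia-inducible genes, 13 were tested, with 3 called higher and 2 lower at 3 days against SB. At 7 days against SB these were 8 and 1, and at 7 days against 3 days 9 and 0. The 4 genes not called at 7 days against SB included LDHA, PGK1 and PDK1. CA9 (0 to 5 normalized counts) and ADM (2 to 11) did not pass the filter on low values. The 3-day shares were 23.1% higher and 15.4% lower, beside 14.9% and 14.0% over all genes tested. Over all genes, 27.7% and 26.9% were called at 7 days against SB, and 17.0% and 16.2% at 7 days against 3 days. LOX, PLOD2, P4HA1 and P4HA2 were named above as targets of hypoxia-inducible factors, and whether other members are such targets was not examined. PLOD2 and P4HA1 were not called at 3 days against SB and rose between 3 and 7 days. P4HA2 rose already at 3 days, and LOX fell between 3 and 7 days. Whether any of these shares a cause with the listed genes was not tested. VEGFA, the endothelial growth factor, had 10129 and 11475 in SB, 6811 and 7487 at 3 days and 17681 and 16845 at 7 days. It fell at 3 days (-0.59, adjusted p = 0.000368) and was 1.27 higher at 7 days than at 3 days on the log2 scale (adjusted p = 4.99e-06). The glycolytic regulator PFKFB4 rose in all 3 comparisons by 1.32, 2.72 and 1.39, NDRG1 by 1.09 and 1.31 against SB at 3 and 7 days, and the histone demethylase KDM3A by 0.34, 0.93 and 0.58. The 3-day call of KDM3A was lost without the first SB library (adjusted p = 0.178) or the first 3-day library (adjusted p = 0.241), and without the second 7-day library 5 of the 13 genes, in place of 9, were called at 7 days against 3 days. BNIP3, chosen after its values were seen, was lower than SB at both times (-0.88 and -0.46).

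**Figure D4:**
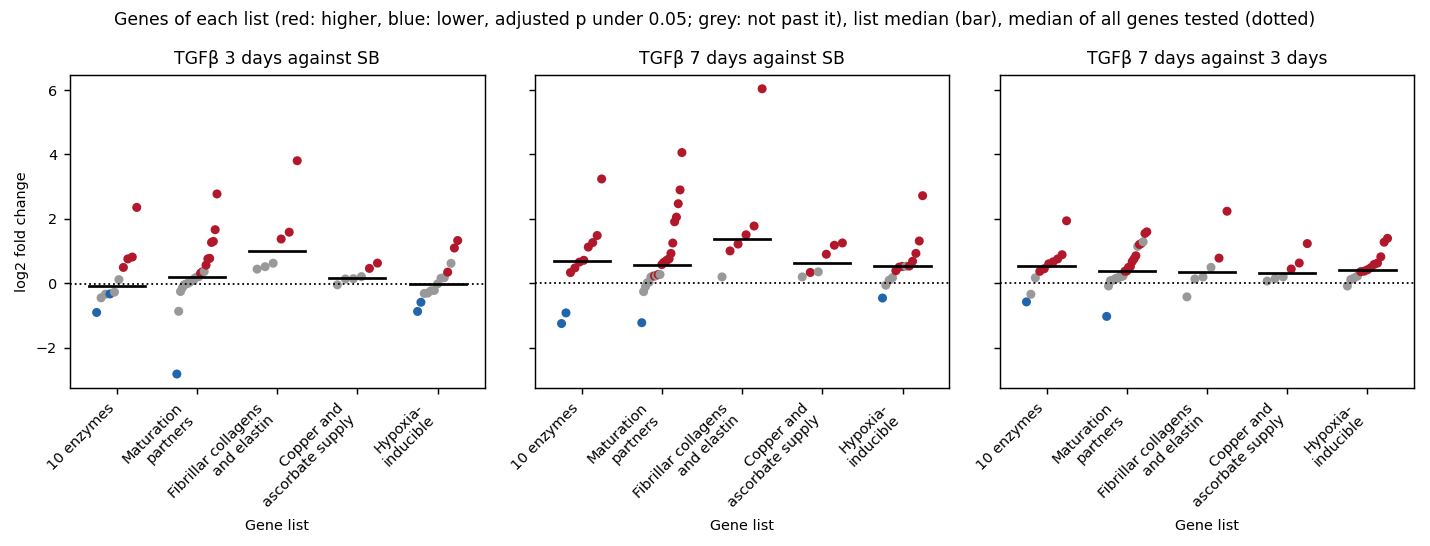
Log2 fold changes (y axis) of the tested genes of the 10 enzymes and of the 4 lists (x axis), 1 panel per comparison, in red where called higher, blue where called lower and grey where not called at an adjusted p under 0.05, with the list median as a bar and the median of all genes tested as a dotted line. COL5A1 is the top point at 7 days against SB, at 6.04, and the list medians lie above the dotted line in both comparisons with 7 days.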

How the data were processed

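PolyA RNA of H2087-LCC cells was sequenced in 6 libraries, 2 per group. Per the submitters' processing notes, FastQC 0.11.5, HTSeq 0.6.1p1 and DESeq2 3.4 were used on hg19, and the study's methods name STAR as the aligner. Strand was not kept by the kit. The authors deposited normalized counts rounded to whole numbers, treated here as a score, so no count model was run. These scores were taken as log2(value + 1), the 14395 of 21293 genes averaging 10 or more were kept, and limma 3.58.1 under R 4.3.3 was applied to the 6 libraries together (group term, 3 residual degrees of freedom, trend), with Benjamini-Hochberg adjustment over all genes tested. Single genes were given as library values and as log2 fold changes, with SE where printed. Family shares and sums are means of the 2 libraries, with SD where printed. Depths were estimated from low values and cover counting error only. The 10 members and the lists were chosen with earlier results of these data known. Named from each list were at most 4 genes, those with the largest absolute log2 fold change in any comparison among genes called at least once, plus PLOD3 and P4HB, and the 5 genes closest in pattern to LOX and to PLOD1. Named outside this rule, after their values were seen, were P3H2, P3H3, COL1A2, COL3A1, BNIP3, LDHA, PGK1, PDK1, CA9 and ADM. Alternatives were the pseudocount, filter, scaling, trend, libraries used, replicate block, left-out libraries and a fold threshold. The last was applied to counts alone, and the alternatives given for single genes leave it out. A merged exon length was added after the data were seen. The steps were tested on simulated data.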

Additional observations from a re-analysis of the deposited data

Results flagged for a closer look

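At 7 days against 3 days, 17.0% of all genes tested were called higher and 16.2% lower. Among the 10 members and the list genes named by rule, 19 differed between 7 and 3 days of TGFβ at a limma adjusted p under 0.05, a test of the difference between the time points itself. As log2 fold changes of 7 days against 3 days, these were -0.58 for LOX, 0.66 for LOXL2, 1.94 for LOXL4, 0.37 for PLOD1, 0.60 for PLOD2, 0.75 for P4HA1, 0.45 for P4HA2 and 0.88 for P4HA3 among the members. Among the list genes they were 1.24 for BMP1, 1.20 for ADAMTS3, 1.59 for ADAMTS14, 0.78 for COL1A1, 2.23 for COL5A1, 0.63 for ATP7A, 1.23 for ATP7B, 0.44 for ATOX1, 1.27 for VEGFA, 0.58 for KDM3A and 1.39 for PFKFB4. The list genes, apart from PLOD3 and P4HB, were named for a call and a large change in these same tests. Calls among them are therefore partly built in. ADAMTS14 had differing signs against SB and against 3 days, being lowest at 3 days.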

How the results depend on the processing

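Of the 30 member results, 20 kept their direction and their side of the threshold under every alternative but the fold threshold (477 values, of which 444 did so). The fold threshold was applied to counts alone. With a further log2 fold change over 1 required, 1, 5 and 1 members were called at 3 days against SB, 7 days against SB and 7 days against 3 days, 5, 7 and 5 partners, and 1267, 2400 and 940 of all genes. For the partners at 3 days against SB, 6 were called with no filter or with no trend. For all genes at 7 days against 3 days, 3042 were called with no filter and 3122 with no trend, in place of 4775. Leaving out 1 library gave 5 to 6, 9 to 10 and 7 to 8 members, 6 to 10, 12 to 16 and 8 to 14 partners, and 2609 to 3877, 5913 to 7687 and 2314 to 5554 genes, the lowest without the first 3-day library, the second 7-day library and the second 7-day library. Signs turned for small differences that were not called: with 1 library left out, the log2 fold change at 3 days against SB was -1 to 0.087 for LOXL4, -0.34 to 0.047 for PLOD3, -0.22 to 0.12 for ATP7B and -0.012 to 0.29 for SLC23A2. PLOD3 was -0.12 to 0.15 at 7 days against SB, where equal library totals gave -0.036, and -0.035 to 0.35 at 7 days against 3 days. For P4HB and COL27A1 the ranges at 7 days against 3 days were -0.0088 to 0.16 and -0.025 to 0.41. A mean of at least 50 dropped LOXL4. The correlations of replicate differences were 0.21 (SB and 3 days), -0.13 (SB and 7 days) and -0.65 (3 and 7 days). Equal replicate numbers thus did not mark pairs throughout. The value of -0.65 shows a spread shared by 3-day and 7-day libraries of unequal number. A block on equal numbers does not model it, and its source was not tested. The replicate block called 6, 10 and 8 members, with 3943, 7546 and 4485 genes. At 3 days against SB the block gained LOX (adjusted p = 0.0220) and lost LOXL2 (0.0554).

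With 2 libraries per group, which the study treats as technical, a difference not called is limited by few degrees of freedom, and low members such as LOXL4 also by counting error.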
